A study of Oryza sativa Japonica Group with 12 samples.

Results

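Transcript levels of 5 genes that act in plant immunity or hold back plant cell death, *LSD1*, *EDR1-like*, *CEBIP*, *LYP4* and *NH1*, were followed in rice parents and their weak F1 hybrids. The genes were taken by an exact match of symbol or synonym in the gene annotation, and they are 5 of 23837 genes with a probe set assigned to a single gene. Each was read by 1 probe set, so no choice among probe sets was needed. They were chosen by their intensities, put forward with their values in the hybrid ‘CH7/8’ against the mean of its parents already known, so everything about ‘CH7/8’ is given as a description without a test. The parents were tested against each other, and ‘CH7/9’ and ‘CH8/9’ against the means of their own parents. The arrays of these hybrids had no part in the choice, but their mid-parents hold the ‘CH7’ or ‘CH8’ arrays that the choice used. Each comparison between parents holds such arrays as well. Neither the tests in the hybrids nor those between parents are therefore independent of the choice.

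The parents were 3 temperate *japonica* rice varieties. ‘CH7’ is ‘Aranghyangchalbyeo’, ‘CH8’ is ‘Sanghaehyangheolua’ and ‘CH9’ is ‘Shinseonchalbyeo’, and by the methods they differ in the hybrid weakness genes they carry. Their F1 progeny were ‘CH7/8’ and the pair with ‘CH9’ as a parent, ‘CH7/9’ and ‘CH8/9’. Hybrid weakness is poor growth of an F1 plant whose parents grow normally. Whole greenhouse plants at tillering were cut up and frozen, and total RNA was hybridized to Affymetrix arrays, 2 for each of the 6 lines and 12 in all. The direction of each cross is not given in the labels, none of the hybrids has a non-weak F1 for comparison, and every line was sampled as a mixture of all organs.

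Plants detect microbes at the cell surface with receptors for microbial molecules such as chitin, a fungal wall polymer. Detection starts defence, part of which runs through the hormone salicylic acid, and can end in localised death of the plant's own cells. Negative regulators hold that death in check, and plants that lack them can form lesions without any pathogen, a state that in several species has been tied to weak hybrids.

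Intensities were deposited unlogged, between 1.58 and 4035, and are given here as log2 intensities, on which a step of 1 is a 2-fold change. Replicate arrays of a line correlated at r = 0.966 to 0.984 over 54922 probe sets, and no array was a copy of another. Genes typical of green tissue (8 measured) lay high on the arrays, at a median percentile of 86.2, as leafy plants would give. Genes of root (7 measured) lay at the middle, with a median percentile of 49.5, and genes of flower and panicle (11 measured) at 20.6 and of endosperm (3 measured) at 8.40 lay low. The mean of the green tissue genes was 5.26 and 5.64 on the ‘CH8/9’ arrays, below the 5.88 to 6.57 of the other 10 arrays. The mean of the flower and panicle genes was highest on ‘CH8/9’ replicate 2, at 3.40, against at most 3.09 elsewhere. In such bulk samples a smaller share of a cell type and less transcript per cell cannot be told apart.

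*LSD1* encodes a small zinc finger protein that in rice and Arabidopsis restrains programmed cell death. Of the 5 genes it had the most neighbouring lines, in order of mean, whose arrays did not overlap. Its log2 intensity was 5.56 and 5.73 in ‘CH7’, 6.31 and 6.30 in ‘CH8’ and 6.17 and 6.19 in ‘CH9’. Among the hybrids it was 6.70 and 6.85 in ‘CH7/8’, 6.14 and 5.29 in ‘CH7/9’ and 6.85 and 7.47 in ‘CH8/9’. Both ‘CH7/8’ arrays and both ‘CH8/9’ arrays were thus above every parental array, whereas the ‘CH7/9’ arrays lay on both sides of ‘CH7’. By line mean the order ran from ‘CH8/9’ (7.16 ± 0.44, SD, n = 2) through ‘CH7/8’ (6.78 ± 0.10), ‘CH8’ (6.31 ± 0.01), ‘CH9’ (6.18 ± 0.01) and ‘CH7/9’ (5.72 ± 0.60) to ‘CH7’ (5.64 ± 0.12). Of the neighbours in this order, ‘CH7/9’ and ‘CH7’ overlapped in their arrays and the others did not, although ‘CH8/9’ and ‘CH7/8’ were separated by less than 0.01. With 2 arrays per line such separation is common: between pairs of parents, 40.0% to 52.3% of all probe sets did not overlap. The share of probe sets with as many separate neighbours was not computed, and the order holds ‘CH7/8’, whose values led to the choice.

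*EDR1-like* is named for its likeness to Arabidopsis *EDR1*, a protein kinase that keeps salicylic acid responses and cell death low. Log2 intensities were 4.10 and 4.66 in ‘CH7’, 3.64 and 4.68 in ‘CH8’ and 4.01 and 3.49 in ‘CH9’. The hybrids gave 3.83 and 3.18 in ‘CH7/8’, 4.39 and 3.62 in ‘CH7/9’ and 3.24 and 3.73 in ‘CH8/9’. Every pair of neighbouring lines overlapped, from ‘CH7’ with the highest mean (4.38 ± 0.40, SD, n = 2) to ‘CH8/9’ with the lowest (3.48 ± 0.34). Replicates of ‘CH8’ alone were 1.04 apart, farther than the highest line mean was from the lowest.

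*CEBIP* encodes a receptor-like protein with LysM domains that binds chitin fragments at the rice cell surface and signals together with the kinase CERK1. Its log2 intensity was 3.77 and 4.09 in ‘CH7’, 4.81 and 4.22 in ‘CH8’ and 4.42 and 4.59 in ‘CH9’. In the hybrids it was 4.47 and 5.35 in ‘CH7/8’, 4.60 and 4.08 in ‘CH7/9’ and 5.19 and 5.91 in ‘CH8/9’. The ‘CH8/9’ arrays were above every parental array and ‘CH7’ had the lowest line mean, but each line overlapped the next in the order, from 5.55 ± 0.51 (SD, n = 2) in ‘CH8/9’ to 3.93 ± 0.23 in ‘CH7’.

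*LYP4* encodes a related LysM protein that in rice binds both bacterial peptidoglycan and chitin. It was the dimmest of the 5 genes, at percentiles of 17.6 to 71.4 on the arrays, and its ‘CH8’ replicates were the farthest apart of any pair. Its log2 intensity was 2.91 and 2.45 in ‘CH7’, 4.42 and 2.85 in ‘CH8’ and 3.86 and 3.50 in ‘CH9’. The hybrids gave 3.20 and 4.34 in ‘CH7/8’, 2.84 and 2.24 in ‘CH7/9’ and 4.15 and 5.16 in ‘CH8/9’. Both ‘CH7/9’ arrays were below both ‘CH8/9’ arrays, but neighbouring lines overlapped throughout, from ‘CH8/9’ (4.65 ± 0.71, SD, n = 2) to ‘CH7/9’ (2.54 ± 0.42).

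*NH1* is the rice homologue of Arabidopsis *NPR1*, a co-activator that turns salicylic acid into changes of transcription. Among the parents *NH1* ran, by line mean, in the opposite order to *LSD1*. Its log2 intensity was 7.40 and 7.13 in ‘CH7’, 5.68 and 5.87 in ‘CH8’ and 6.35 and 6.13 in ‘CH9’. The hybrids gave 6.92 and 6.21 in ‘CH7/8’, 7.11 and 6.73 in ‘CH7/9’ and 6.30 and 6.25 in ‘CH8/9’. ‘CH7’ was above and ‘CH8’ below all other lines without overlap, at 7.26 ± 0.19 and 5.77 ± 0.13 (SD, n = 2), and the 4 lines between them overlapped with their neighbours.

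**Figure D1:**
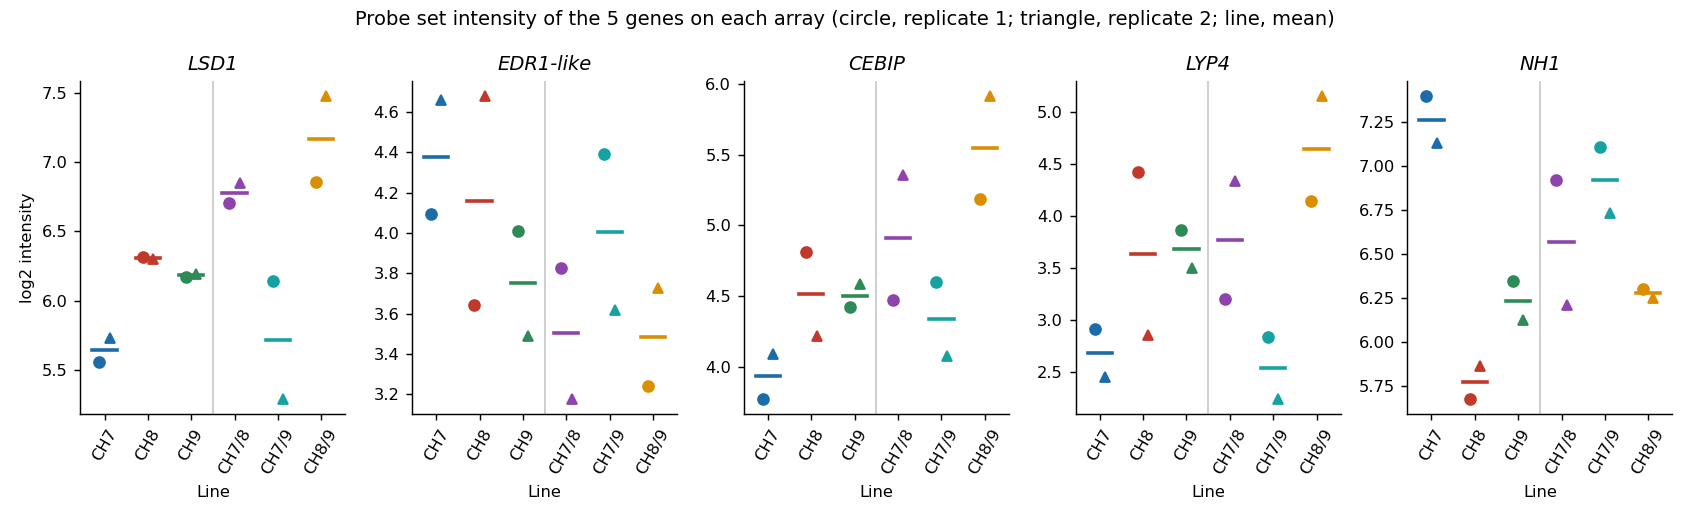
Log2 intensity (vertical axis, a scale of its own in each panel) of the 5 genes on each array of the 6 lines, with a circle for replicate 1, a triangle for replicate 2 and a short line for the line mean. *LSD1* and *CEBIP* are highest in ‘CH8/9’, and *NH1* is highest in ‘CH7’ and lowest in ‘CH8’.

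Do the parents differ in these genes before any cross is made? *NH1* was lower in ‘CH8’ than in ‘CH7’, by 2.81-fold, with a log2 difference of −1.49 (standard error 0.24, 95% interval −2.04 to −0.94, adjusted p = 0.0135, limma, Benjamini-Hochberg adjustment over all probe sets). To be called, a gene had to change by 2-fold or more with an adjusted p no higher than 0.05. *NH1* was the 1 gene of the 5 called in any of the 6 comparisons tested. In ‘CH8’ against ‘CH7’ 3.69% of all probe sets were called and 20.6% had an unadjusted p under 0.05, against 1 and 2 of the 5 genes. With 5 genes a single call is 20 percent, and nothing particular to the set is read from it. The call was lost when ‘CH7’ replicate 1, ‘CH8’ replicate 1 or ‘CH8’ replicate 2 was left out (adjusted p = 0.111, 0.0510 and 0.0527 by limma; range over all alternatives 0.00421 to 0.111), with a difference between −1.62 and −1.36 without any 1 array.

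*NH1* was also lower in ‘CH9’ than in ‘CH7’, 6.24 against 7.26, a log2 difference of −1.03 (standard error 0.24, 95% interval −1.57 to −0.48), which was not called (limma, unadjusted p = 0.00223, adjusted p = 0.142). Background calls in that comparison were 0.375%. Between ‘CH9’ and ‘CH8’ the difference of *NH1* was 0.46 (standard error 0.24, adjusted p = 0.681 by limma), with 0.586% of probe sets called. Its arrays did not overlap in any of the 3 pairs of parents, but the same was true of 52.3% of probe sets for ‘CH8’ and ‘CH7’, 51.7% for ‘CH9’ and ‘CH7’ and 40.0% for ‘CH9’ and ‘CH8’.

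The other 4 genes were not called between parents. *LSD1* was higher than in ‘CH7’ by 0.66 on the log2 scale in ‘CH8’ (standard error 0.28, unadjusted p = 0.0423, adjusted p = 0.222, limma) and by 0.54 in ‘CH9’ (adjusted p = 0.475 by limma). For the chitin receptor genes the ‘CH8’ minus ‘CH7’ difference was 0.58 for *CEBIP* (95% interval −0.23 to 1.40) and 0.95 for *LYP4* (−0.33 to 2.24), and for ‘CH9’ minus ‘CH7’ it was 0.57 and 1.00. These intervals allow both no difference and changes beyond 2-fold. With 1 array left out the ‘CH8’ minus ‘CH7’ value ran from 0.29 to 0.88 for *CEBIP* and from 0.17 to 1.74 for *LYP4*, in both lowest without ‘CH8’ replicate 1 and highest without ‘CH8’ replicate 2. *EDR1-like* differed by −0.22 in ‘CH8’ and −0.63 in ‘CH9’ (adjusted p = 0.846 and 0.609 by limma). Between ‘CH9’ and ‘CH8’ *LSD1*, *CEBIP* and *LYP4* differed by −0.12, −0.01 and 0.05. None of the 5 genes was called for ‘CH9’ against ‘CH7’ or ‘CH8’ by limma, and at an unadjusted p under 0.05 there were 1 and 0, where 12.6% and 8.83% of probe sets had such a p.

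**Figure D2:**
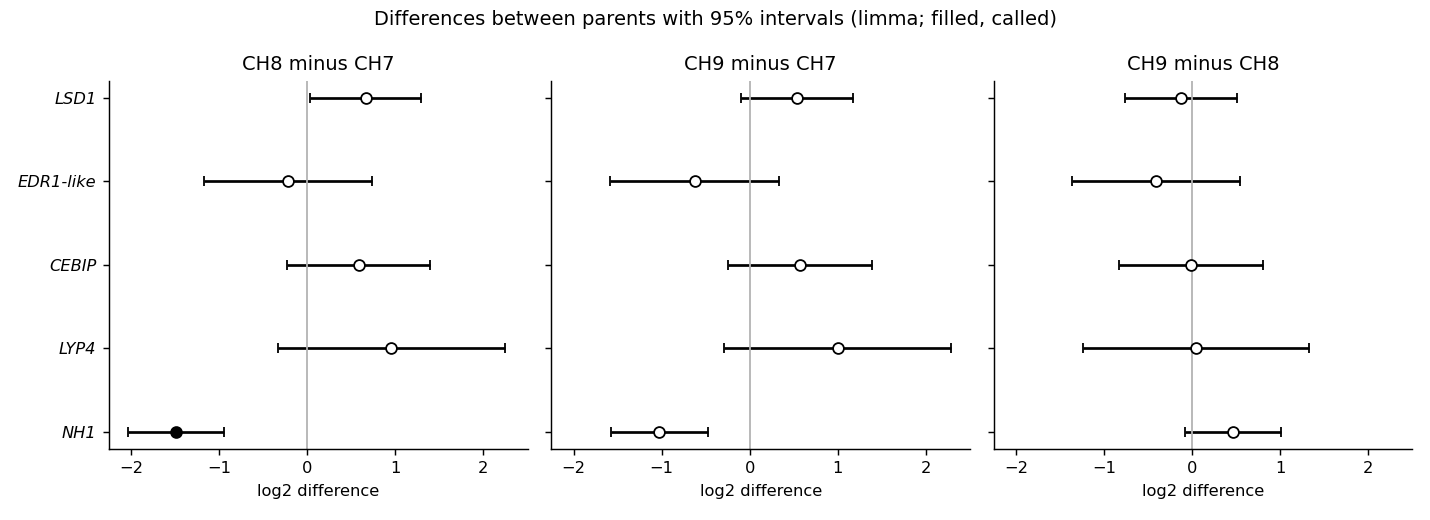
Log2 difference between parents (horizontal axis) of the 5 genes (vertical axis) with 95% intervals from limma, filled where called, in panels for ‘CH8’ minus ‘CH7’, ‘CH9’ minus ‘CH7’ and ‘CH9’ minus ‘CH8’. The interval of *NH1* lies below 0 in both comparisons with ‘CH7’, and that of *LSD1* just above 0 for ‘CH8’.

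To ask whether the hybrids depart from their parents, each hybrid was set against the mid-parent, the mean of its 2 parents on the log2 scale. The comparison of ‘CH8/9’ shares the ‘CH8’ arrays, and that of ‘CH7/9’ the ‘CH7’ arrays, with the comparison by which the genes were chosen. In ‘CH8/9’ *LSD1* stood 0.61 and 1.23 above the mid-parent on its 2 arrays and *CEBIP* 0.68 and 1.40 above, and both genes were above all 4 parental arrays, as were 9.69% of probe sets. The mean difference was 0.92 for *LSD1* (standard error 0.24, 95% interval 0.37 to 1.47, unadjusted p = 0.00432 by limma) and 1.04 for *CEBIP* (standard error 0.31, 95% interval 0.33 to 1.74, unadjusted p = 0.00874 by limma). Neither passed after adjustment over all probe sets (limma, adjusted p = 0.575 and 0.627). Over all alternatives the *CEBIP* difference ran from 0.42 to 1.40 and that of *LSD1* from 0.61 to 1.23. *LYP4* lay 0.49 and 1.5 above, with a mean of 0.99 (95% interval −0.12 to 2.11, adjusted p = 0.695 by limma) and overlap with a ‘CH8’ array. *NH1* and *EDR1-like* differed by 0.27 and −0.47 (adjusted p = 0.787 and 0.790 by limma). In this comparison 0 of the 5 genes were called by limma and 2 had an unadjusted p under 0.05, against 0.0164% of probe sets called and 7.36% with such a p. A difference as large as that of *LSD1*, *CEBIP* or *LYP4*, in either direction, was seen in 2.3%, 1.45% and 1.75% of all probe sets.

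The ‘CH8/9’ arrays that gave these values were also those with the lowest green tissue genes, 6 of 8 of which had their lowest value on a ‘CH8/9’ array, and replicate 2, the higher for *LSD1*, *CEBIP* and *LYP4*, had the highest value of 6 of the 11 flower and panicle genes. Of the 7 root genes, 4 also had their lowest value on a ‘CH8/9’ array. The part of organ composition in the ‘CH8/9’ results was not tested.

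‘CH7/9’ gave a different picture. Its differences from the mid-parent were 0.23 and −0.62 for *LSD1*, 0.38 and −0.14 for *CEBIP*, 0.36 and −0.02 for *NH1* and 0.33 and −0.45 for *EDR1-like*, so that the 2 arrays disagreed in sign for each of these 4 genes. *LYP4* was 0.35 and 0.95 lower, with a mean of −0.65 (95% interval −1.76 to 0.47, adjusted p = 0.691 by limma), and overlapped the ‘CH7’ arrays. No gene of the 5 was called by limma and 0 had an unadjusted p under 0.05, where 0.00182% of probe sets were called and 9.34% had such a p. Replicate 1 was higher than replicate 2 for all 5 genes.

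Whether the departure from the mid-parent itself differs between these hybrids was tested as a contrast of the 2 differences, ‘CH7/9’ minus ‘CH8/9’. The 2 sides share the ‘CH9’ arrays, and each holds arrays of a parent of ‘CH7/8’. The value was −1.12 for *LSD1* (standard error 0.31, 95% interval −1.83 to −0.41, unadjusted p = 0.00614), −0.92 for *CEBIP* (standard error 0.40, unadjusted p = 0.0475) and −1.64 for *LYP4* (standard error 0.64, unadjusted p = 0.0300) by limma. After adjustment none passed (limma, adjusted p = 0.267, 0.386 and 0.357), and 0.00364% of probe sets were called while 12.8% had an unadjusted p under 0.05. Without ‘CH7/9’ replicate 1 the value of *LSD1* was −1.54 and was called (limma, adjusted p = 0.0477; range over its alternatives 0.0477 to 0.780), in a fit where probe sets called over the array rose from 2 to 624. *NH1* (−0.10) and *EDR1-like* (0.41) had intervals that spanned 0.

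In ‘CH7/8’, whose values led to the choice of these genes, *LSD1* was 0.73 and 0.88 above the mid-parent and clear of all 4 parental arrays, as were 4.99% of probe sets. *CEBIP* was 0.25 and 1.13 above and *LYP4* 0.04 and 1.18 above, so that for both the larger part came from replicate 2. *EDR1-like* was 0.44 and 1.09 below, and *NH1* fell on either side, at 0.40 and −0.30. Set against each parent, *LSD1* exceeded ‘CH7’ by 1.13 and ‘CH8’ by 0.47 on the log2 scale, *CEBIP* by 0.98 and 0.40, and *LYP4* by 1.09 and 0.13. When 1 array was left out, the *LSD1* value against ‘CH8’ ran from 0.398 to 0.545, but those of *CEBIP* and *LYP4* did not keep their sign. They ran from −0.044 to 0.84 for *CEBIP* (lowest without ‘CH7/8’ replicate 2) and from −0.65 to 0.92 for *LYP4* (lowest without ‘CH8’ replicate 2). *NH1* lay between its parents, 0.69 below ‘CH7’ and 0.79 above ‘CH8’, and *EDR1-like* was 0.87 and 0.66 below.

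**Figure D3:**
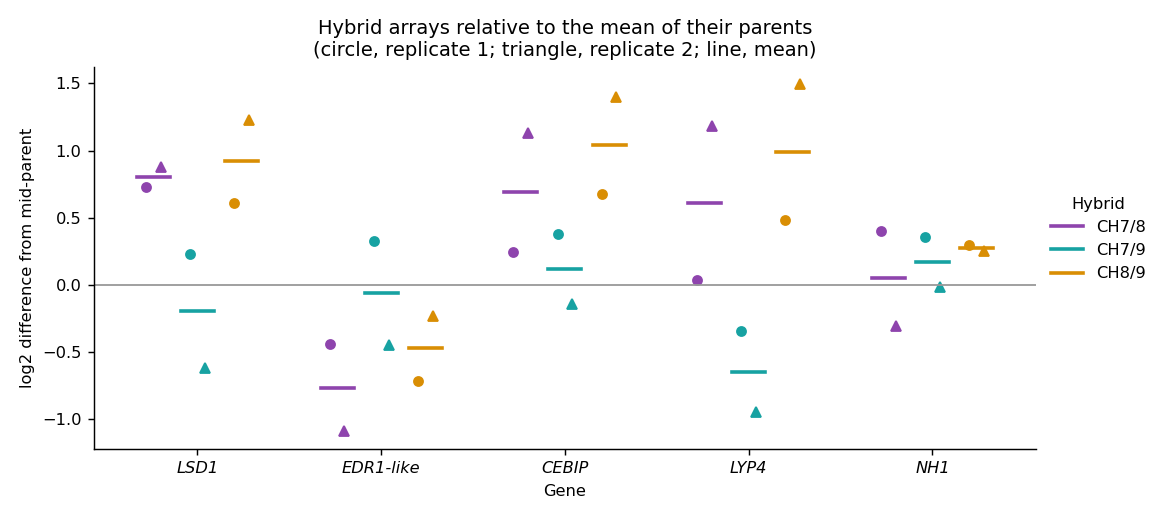
Log2 difference of each hybrid array from the mid-parent (vertical axis) for the 5 genes, with a circle for replicate 1, a triangle for replicate 2 and a short line for the hybrid mean. *LSD1* is above 0 on all arrays of ‘CH7/8’ and ‘CH8/9’ and on both sides of 0 in ‘CH7/9’.

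Across the arrays *LSD1*, *CEBIP* and *LYP4* followed each other. Over 12 arrays, Pearson's r was 0.903 for *LSD1* with *CEBIP*, 0.835 for *LSD1* with *LYP4* and 0.880 for *CEBIP* with *LYP4*, and over the 6 line means it was 0.960, 0.951 and 0.904. Replicates of a line moved the same way in *LSD1* and *CEBIP* in 6 of 6 lines and in each of the other pairs in 4 of 6. *NH1* had r of −0.465, −0.495 and −0.598 with *LSD1*, *CEBIP* and *LYP4* over the arrays, and −0.557, −0.493 and −0.681 over the line means. *EDR1-like* had −0.398, −0.566 and −0.582 over the arrays and −0.841, −0.869 and −0.756 over the line means. The arrays share lines, a parent's genome and the normalization, and these coefficients are descriptions. They also include the ‘CH7’, ‘CH8’ and ‘CH7/8’ arrays used in choosing the genes, so part of their size and sign can come from the choice.

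**Figure D4:**
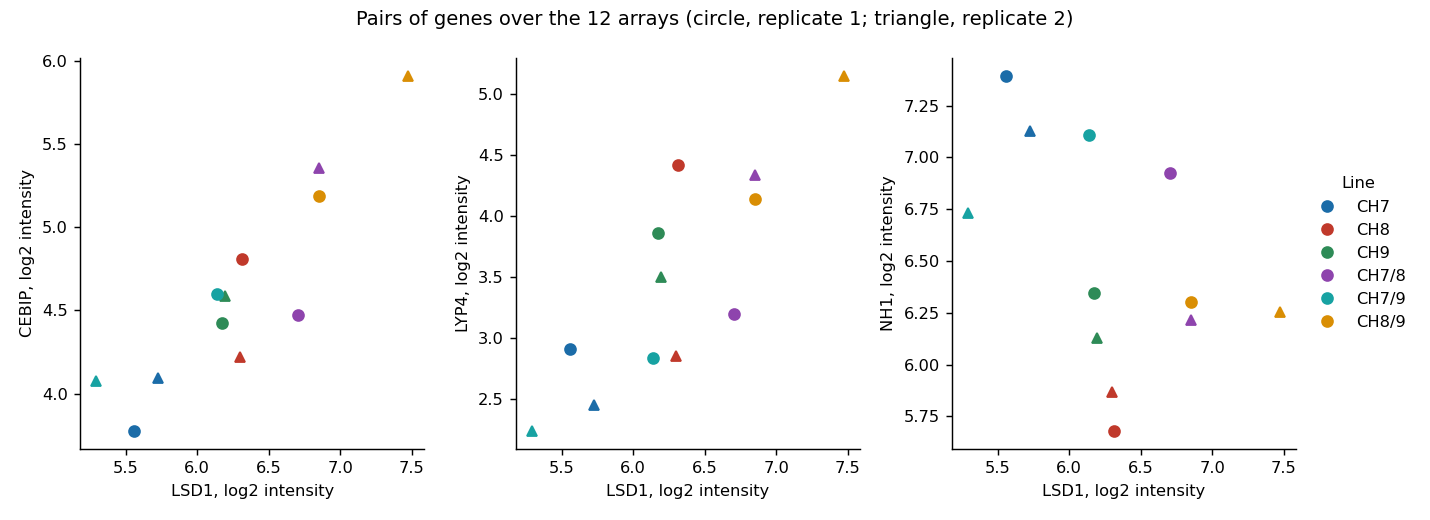
Log2 intensity of *CEBIP*, *LYP4* and *NH1* (vertical axes) against that of *LSD1* (horizontal axis) on the 12 arrays, coloured by line, with circles for replicate 1 and triangles for replicate 2. *CEBIP* and *LYP4* climb with *LSD1* (r = 0.903 and 0.835), with ‘CH8/9’ replicate 2 at the top right, and *NH1* tends downward (r = −0.465).

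Among 2037 named genes of at least middling intensity, the 3 whose log2 values followed each gene most closely over the 12 arrays were taken. For *LSD1* these were *CEBIP* itself (r = 0.903), *AGO1A* (0.897), an Argonaute of small RNA silencing, and *LKHA4* (0.880). *CEBIP* was followed by the kinesin *KIN1* (0.934), the *SPO11* homologue *OsSPO11-4* (0.918) and the auxin efflux carrier *OSPIN10a* (0.915). For *LYP4* they were *OsGH3-11* (0.967), *FTIP7* (0.954) and *grf3* (0.949), the last listed also as the growth-regulating factor *OsGRF5*. *NH1* was followed by the potassium channel *OsTPK3* (0.939), the potassium transporter *HAK5* (0.934) and the ammonium transporter *AMT3-3* (0.933). *EDR1-like* was most like *AGD2* (0.936), *IAA6* (0.837) and *OsbZIP70* (0.829). With this many candidates and 12 arrays of 6 lines, high values of r are to be had for many genes.

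Related immune genes were looked at through 6 lists of symbols, of pattern receptors and partners, defence signaling, the salicylic acid branch, cell death regulators, pathogenesis-related proteins and resistance proteins. They held 239 names, of which 50 genes besides the 5 were measured and 14 more were set aside because another gene shares the name. In ‘CH8’ against ‘CH7’ 26 were higher and 24 lower. An unadjusted p under 0.05 was seen for 17 of the 50, and for 20.6% of all probe sets. The list genes are named genes at their highest-mean probe set, whereas 30747 of all probe sets have no listed gene. A share over matched genes was not computed, and no excess is read from these numbers. In each direction 1 was called, 4.0% against 3.69% of all probe sets. The median difference was 0.02, against −0.05 over all probe sets.

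The gene called lower was *TGAL1*, a bZIP factor of the TGA family that partners NPR1 proteins. On the log2 scale it gave 6.89 and 7.42 in ‘CH7’ and 4.84 and 3.54 in ‘CH8’, a difference of −2.97 (standard error 0.55, adjusted p = 0.0213, limma; range over its alternatives 0.0109 to 0.107). ‘CH7’ and ‘CH8’ did not overlap, as with *NH1*, and ‘CH9’ was between them at 5.80 and 5.54. The call was lost without ‘CH7’ replicate 1 (adjusted p = 0.0996), ‘CH7’ replicate 2 or ‘CH8’ replicate 2 (0.107 each by limma).

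The gene called higher was *XA13*, a sugar transporter of the SWEET family whose recessive allele gives resistance to bacterial blight. On the arrays its log2 intensity was 3.80 and 4.13 in ‘CH7’ and 5.37 and 6.12 in ‘CH8’, a difference of 1.78 (standard error 0.26, adjusted p = 0.00920 by limma; range over its alternatives 0.00517 to 0.0866). In ‘CH9’ it was 3.96 and 3.94, lower than in ‘CH8’ by a called log2 difference of −1.80 (limma, adjusted p = 0.0187; range 0.00662 to 0.197). ‘CH8’ thus stood above both other parents, with no overlap. The first call was lost without ‘CH7’ replicate 1 (adjusted p = 0.0866 by limma), and the second without ‘CH8’ replicate 2, ‘CH9’ replicate 1 or ‘CH9’ replicate 2 (0.0841, 0.150 and 0.123).

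Outside ‘CH8’ against the other parents, none of the 50 genes was called by limma. For ‘CH9’ against ‘CH7’ 25 were higher and 25 lower, with 5 at an unadjusted p under 0.05 (12.6% of all probe sets), and the differences farthest from 0 were those of *TGAL1* (−1.48), the pathogenesis-related gene *PBZ1* (−1.47) and the transcription factor gene *WRKY76* (1.06), with limma adjusted p = 0.317, 0.431 and 0.368. For ‘CH9’ against ‘CH8’ 24 were higher and 26 lower, *XA13* was the 1 called and 10 had an unadjusted p under 0.05, where 0.586% of all probe sets were called and 8.83% had such a p. In ‘CH8/9’ 22 were above the mid-parent and 28 below, with 2 at such a p (7.36% of all probe sets). The values farthest from 0 were −0.92 for the blast resistance gene *PI21*, 0.81 for *TGAL1* and −0.56 for the lesion mimic gene *SPL7*, with limma adjusted p = 0.721, 0.723 and 0.814.

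Direct partners and relatives of the 5 genes behaved as follows. *CERK1*, the kinase that signals with CEBIP, had line means between 6.24 and 6.46, and none of its differences was called. Of the *LSD1*-like genes *LOL1* to *LOL5*, none was called in any comparison. In ‘CH8/9’, where *LSD1* was 0.92 above the mid-parent, *LOL4* was 0.35 and *LOL5* 0.52 above, *LOL2* 0.47 and *LOL1* 0.17 above, and *LOL3* 0.28 below (−0.28). *NH3*, a further *NPR1* homologue, was like *NH1* lower in ‘CH8’ (5.88 and 6.43) than in ‘CH7’ (7.73 and 7.38), by −1.40 on the log2 scale, but was not called (adjusted p = 0.107, limma), and unlike *NH1* it was not lower in ‘CH9’ (8.33 and 7.60). The other 4 measured homologues had ‘CH8’ minus ‘CH7’ differences above 0, at 0.31 for *NH2*, 0.22 for *NH4*, 0.12 for *NH5* and 0.76 for *NPR4*, none of them called (limma, adjusted p = 0.515, 0.586, 0.878 and 0.228).

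**Figure D5:**
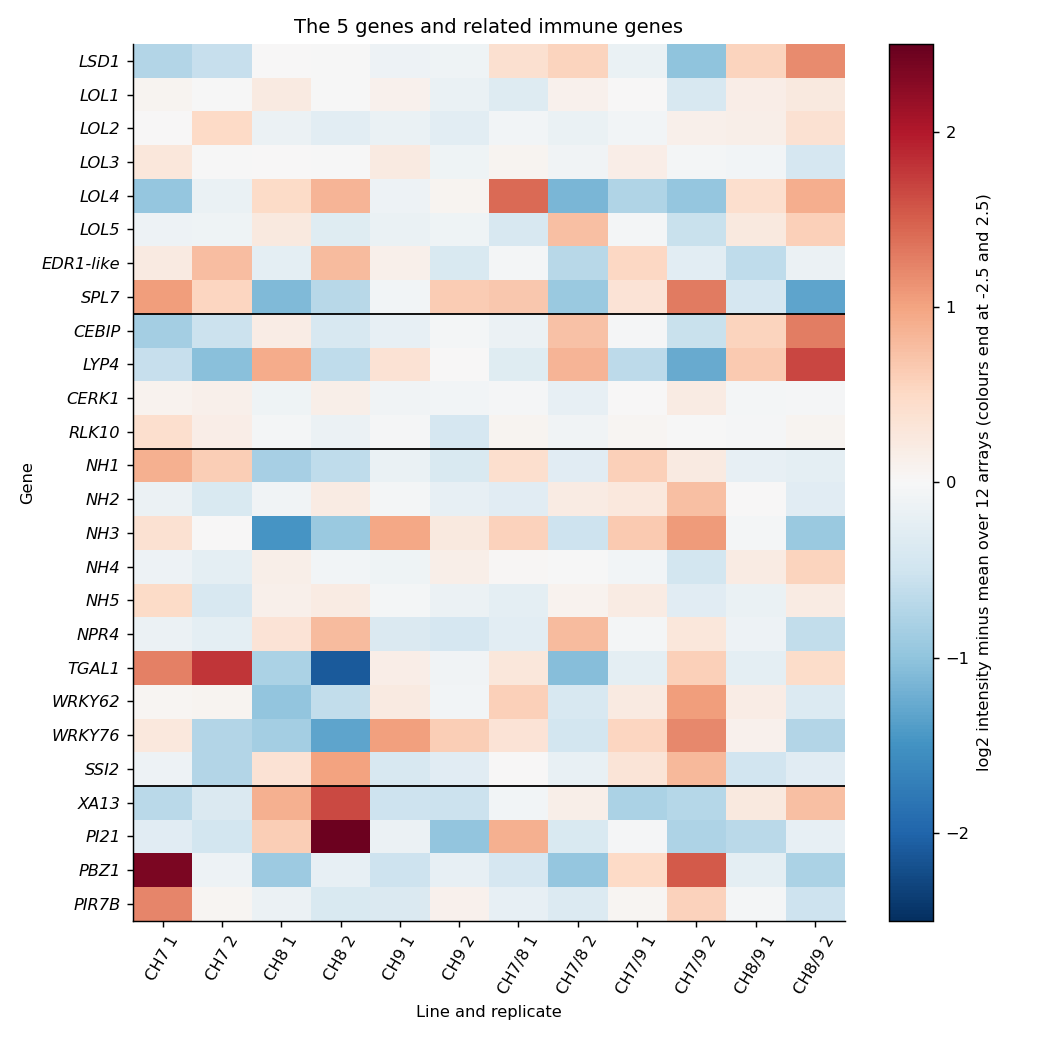
Log2 intensity minus the mean over 12 arrays (colour, red above and blue below) of the 5 genes and 21 genes of the lists, in rows, on the 12 arrays, in columns. The genes shown were picked after values were seen. *NH1*, *NH3* and *TGAL1* are low in both ‘CH8’ arrays, *XA13* is high there, and *CERK1* is nearly even across lines.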

How the data were processed

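Total RNA of whole rice plants at tillering was measured on 12 Affymetrix arrays, 2 per line. The authors deposited 1 table of linear intensity values for 54922 probe sets. The methods name RMA with quantile normalization, the submitters' processing notes name MAS5, and which made the table is not known. Versions and the genome build are not given in the sources used here. Per the methods there were 3 replicates per line, each an independent plant, whereas the labels give 2 per line, and all 12 arrays were used. The number of arrays limits the precision.

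Intensities were taken to log2 with a pseudocount of 0. Of the probe sets, 24080 had 1 gene in the platform annotation, 95 several and 30747 none listed. Probe sets with several genes named no gene. Genes were named through the platform annotation and RefSeq's gene table, the probe set with the highest mean standing for a gene. Members and lists were chosen with earlier results of these data known. The named genes are the 5 members, 3 neighbours in pattern of each, and list genes that were called or, where none was, the 3 with the largest difference. The *LOL* genes, *CERK1* and the *NPR1* homologues were added after their values were seen.

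A mean per line was fitted over the 12 arrays with limma 3.58.1 in R 4.3.3 (lmFit, eBayes, Benjamini-Hochberg adjustment over all probe sets), and checked on simulated data with 200 changed probe sets. The SAM test of the methods was not run, since 2 arrays per line give too few permutations. Results were recomputed after quantile normalization or median centring, without dim probe sets, with 1 or 50 added before log2, on the lines compared alone, with a mean-dependent spread, with array weights, with 1.5-fold or no fold threshold, with a replicate block, with a gene's probe sets averaged, and without each array in turn. p-values measure the spread between plants as the methods describe them.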

Additional observations from a re-analysis of the deposited data

Results flagged for a closer look

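The arrays of *LYP4*, a LysM receptor gene, lay on opposite sides of the mid-parent in different hybrids, although the 95% interval of its difference spanned 0 in each. In ‘CH7/8’ both arrays were above it (0.04 and 1.18 on the log2 scale) and in ‘CH7/9’ both were below (−0.35 and −0.95), so that the 2 mean differences were 1.26 apart. This difference was not tested, because the ‘CH7/8’ values were known when the gene was chosen.

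The same gene was below the mid-parent on both arrays of ‘CH7/9’ and above it on both arrays of ‘CH8/9’ (0.49 and 1.5). The difference between the hybrids was −1.64 (standard error 0.64, adjusted p = 0.357 by limma) and did not pass the test. *LYP4* was dim, and the size of this value depended on the pseudocount, at −0.36 with 50 added before log2. Such dependence was not limited to *LYP4*. The same setting took the ‘CH7/8’ differences from the mid-parent of *CEBIP* and *EDR1-like* from 0.69 and −0.77 to 0.23 and −0.18. *LYP4* had the widest gap between replicates of the 5 genes, in ‘CH8’. Samples of 2 arrays per line were too few for a search for outlying arrays.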

How the results depend on the processing

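The number of the 5 genes called (1 in ‘CH8’ against ‘CH7’, 0 in the other comparisons) was the same in 138 of 144 recomputations. A pseudocount of 50 brought *NH1* to −0.96 for ‘CH8’ against ‘CH7’, under 2-fold, with an adjusted p of 0.0298 (limma). The number called was then 0 in that comparison, and it was between 0 and 1 with each array left out. For ‘CH9’ against ‘CH7’ it was 1 with array weights, where *NH1* had an adjusted p of 0.0369 (limma; range over its alternatives 0.0369 to 0.538). For ‘CH7/9’ against ‘CH8/9’ it was between 0 and 1 with each array left out.

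Directions turned in 15 of 660 recomputed differences, each in a comparison where the gene was not called. With each array left out, *EDR1-like* ran from −0.74 to 0.30 for ‘CH8’ minus ‘CH7’ (0.06 without ‘CH7’ replicate 2, 0.30 without ‘CH8’ replicate 1). For ‘CH9’ minus ‘CH8’ *CEBIP* ran from −0.31 to 0.28 (0.28 without ‘CH8’ replicate 1, 0.07 without ‘CH9’ replicate 1), *LYP4* from −0.74 to 0.83 (−0.74 without ‘CH8’ replicate 2, −0.14 without ‘CH9’ replicate 1) and *EDR1-like* from −0.93 to 0.11 (0.11 without ‘CH8’ replicate 2), and with a pseudocount of 50 *LYP4* was −0.023. For ‘CH7/9’ minus the mid-parent *LSD1* ran from −0.62 to 0.23 and *EDR1-like* from −0.45 to 0.33 (each highest without ‘CH7/9’ replicate 2; *EDR1-like* 0.08 without ‘CH7’ replicate 2 and 0.07 without ‘CH9’ replicate 1), *CEBIP* from −0.14 to 0.38 and *NH1* from −0.018 to 0.36 (each lowest without ‘CH7/9’ replicate 1). The ‘CH7/9’ against ‘CH8/9’ value of *NH1* ran from −0.29 to 0.084, the latter without ‘CH7/9’ replicate 2. The cause was not tested. Of 330 recomputed ‘CH7/8’ differences, given without a test, 31 moved by more than 1 SD between replicates, all with a pseudocount of 50 or without a ‘CH8’ or ‘CH7/8’ array. Where a line kept 1 array, it was assumed to vary like the others.

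Among the list genes, the call of *TGAL1* was also lost in a fit of ‘CH7’ and ‘CH8’ alone (limma, adjusted p = 0.0636), and those of *XA13* in fits of the lines compared alone (0.0693 and 0.197) and with a pseudocount of 50 (0.67 and −0.68).

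Over all probe sets, calls for ‘CH8’ against ‘CH7’ went from 2024 to 323 with a pseudocount of 50 and 1171 in a fit of the lines compared alone. For ‘CH9’ against ‘CH7’ they went from 206 to 43 and, with array weights, 762, and for ‘CH9’ against ‘CH8’ from 322 to 75 and, on the lines compared, 129. For ‘CH8/9’ they went from 9 to 0 with either of those settings and 15 with array weights, and with each array left out from 3 to 48. Leaving out an array gave 393 to 2533, 60 to 384 and 155 to 581 calls between the parents, 0 to 536 for ‘CH7/9’ and 0 to 624 for the difference between hybrids, both highest without ‘CH7/9’ replicate 1. A fit with the replicate number as a block called 1849, 144 and 303 between parents, 1 for ‘CH7/9’, 7 for ‘CH8/9’ and 2 for the difference, with the same number of the 5 genes and an adjusted p of 0.0124 for *NH1* (limma). The numbers did not pair the plants: correlations of the replicate differences between lines ran from −0.333 to 0.204.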

Other observations

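In ‘CH7/9’, where none of the 5 genes was called by limma, 8 of the 11 genes of the salicylic acid branch other than *NH1* lay above the mid-parent and 3 below, with a median of 0.42 against 0.08 over all probe sets. None was called by limma, and 2 of the 11 had an unadjusted p under 0.05, against 9.34% of all probe sets. *SSI2*, a stearoyl-ACP desaturase whose loss in Arabidopsis turns on salicylic acid responses, was 5.73 and 6.23, against 5.29 and 4.68 in ‘CH7’ and 5.02 and 5.13 in ‘CH9’. Both hybrid arrays were above all parental arrays, as were 11.2% of probe sets, and the log2 difference of 0.95 was not called (standard error 0.24, adjusted p = 0.397, limma). *NH2*, an *NPR1* homologue, was 7.03 and 7.50, against 6.61 and 6.39 in ‘CH7’ and 6.70 and 6.56 in ‘CH9’, a difference of 0.70 (standard error 0.20, adjusted p = 0.440, limma). *TGAL1* went the other way, at −0.60 (adjusted p = 0.705, limma). *PBZ1*, a pathogenesis-related gene, was 0.64 above (adjusted p = 0.754, limma), with its ‘CH7’ arrays far apart at 5.88 and 3.39. Of the 50 list genes 30 were above the mid-parent in ‘CH7/9’, with 0 called by limma and 4 at an unadjusted p under 0.05, and the median was 0.07, against 0.08 over all probe sets.

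For the difference between ‘CH7/9’ and ‘CH8/9’ in their departure from the mid-parent, 9 of the 11 genes of the salicylic acid branch other than *NH1* were above 0, with a median of 0.65 against 0.08 over all probe sets. None was called by limma, and 5 had an unadjusted p under 0.05, against 12.8% of all probe sets. *SSI2* was at 1.51 (adjusted p = 0.169, limma), *TGAL1* went the other way at −1.41 (adjusted p = 0.386, limma), and *PI21* of the resistance proteins was at 0.99 (adjusted p = 0.523, limma). ‘CH8/9’ was also the hybrid with the lowest green tissue genes, and the part of organ composition in this difference was not tested.

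In ‘CH7/8’, given without a test, 20 of the 50 list genes were above the mid-parent and 30 below, with a median of −0.08, against −0.01 over all probe sets.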
